A study of Mus musculus with 15 samples.

Results

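Cajal-Retzius neurons were examined in single-nucleus RNA-seq of the mouse dorsal hippocampus. A nucleus was counted as a Cajal-Retzius nucleus when at least 500 genes were detected and it held at least 3 unique molecular identifiers (UMIs, each standing for 1 captured RNA molecule) of Reln. It also needed at least 1 UMI in total of Trp73, Lhx1 and Lhx5, and at most 1 UMI of Gad1 and Gad2 together. This rule found 823 nuclei among 133236 nuclei with at least 500 genes (134019 barcodes in all). Every mouse contributed between 29 and 111 of them.

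The study profiled nuclear RNA of 15 female C57BL6/J mice, 1 library per mouse, to ask whether reproductive experience and stress after birth leave lasting changes in the hippocampus. The NP group (n = 6) held virgin, nulliparous mice matched for age. The control RE group (n = 4) had gone through breeding, pregnancy, birth, lactation and pup rearing until weaning, and the stress RE group (n = 5) had the same experience plus daily separation from the pups and limited nesting in the later part of lactation. All mice were wild type. The exact ages at collection are not given in the sample labels. Punches of 1 mouse were combined, mice were not pooled, and by the study's methods the punches also took in cortical, thalamic and ventral hippocampal tissue. The mice fell into 3 labelled batches. Control RE mice were absent from batch 1, which consisted of 1 stress RE and 2 NP animals, and every group had 2 mice in batch 2 and in batch 3.

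Cajal-Retzius cells are among the earliest-born neurons of the cortex. They sit in the outermost layer, use glutamate, and secrete reelin, a large extracellular glycoprotein that guides the positioning of migrating neurons through the receptors VLDLR and ApoER2 (Lrp8) and the adaptor DAB1 in the receiving cell. Their survival and identity depend on p73, encoded by Trp73. Most of them are lost from the neocortex after birth, whereas in the hippocampus a population persists into adulthood along the fissure and the outer molecular layer of the dentate gyrus.

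The libraries held 5739 to 12686 nuclei and 40602582 to 96211264 UMIs each, of which 82478 to 658338 UMIs came from Cajal-Retzius nuclei. Among all barcodes, 2211 sequences occurred in more than 1 library. The barcodes of 20 Cajal-Retzius nuclei were also present in another library, and 0 were counted as Cajal-Retzius nuclei in more than 1. In 5 libraries (NP mouse 37, control RE mouse 72, and stress RE mice 43, 75 and 77) the Cajal-Retzius nuclei stood apart from those of the other 10 libraries, as described with the sub-clusters. Group results are therefore also given without these 5 libraries.

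The genes of the rule chose the nuclei, and their values are given as a description only. Reln (GRCm38, chr5:21884454-22344702, minus strand) encodes reelin. A Cajal-Retzius nucleus held a median of 33 Reln UMIs, with quartiles of 19 and 51 and a highest value of 181. Trp73 (chr4:154056253-154140208, minus strand) was detected in 89.1% of the 823 nuclei. The LIM-homeodomain factor Lhx1 (chr11:84518284-84525535, minus strand) was detected in 32.2% and its paralogue Lhx5 (chr5:120431699-120441223, plus strand) in 19.4%. In 448 nuclei Trp73 was the only 1 of the 3 factors detected, in 158 it came with Lhx1, in 86 with Lhx5 and in 41 with both. The remaining 90 nuclei lacked Trp73, with Lhx1 alone in 57, Lhx5 alone in 24 and both in 9. These 90 nuclei still held 1006 CPM (UMI counts scaled to the total UMIs of the population) of Ndnf, a gene outside the rule, against 1430 CPM over all 823.

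The lower bounds of the rule took in few intermediate nuclei on Reln and more on the transcription factors. Just inside the bound on Reln, 19 nuclei held 3 or 4 Reln UMIs and had 72.3 CPM of Ndnf, and just outside it 25 nuclei held 2 Reln UMIs and had 13.0 CPM. Most members were far from that bound, since 749 held 10 or more Reln UMIs. By contrast, 186 members passed with a single UMI of the 3 factors (739 CPM of Ndnf), whereas 1614 nuclei with the same Reln and Gad limits but no UMI of the factors stayed outside (26.9 CPM of Ndnf). At the upper bound, 66 members held 1 UMI of Gad1 or Gad2 and 975 CPM of Ndnf. Outside it, 19 nuclei held 2 such UMIs (275 CPM) and 392 held 3 or more (32.1 CPM). Only 1 barcode with fewer than 500 but at least 200 genes met the other conditions.

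Genes outside the rule were compared between the Cajal-Retzius nuclei and all other nuclei of the same mouse. The nuclei were chosen by their own RNA, so these are descriptions with no test. Ndnf (chr6:65671590-65712326, plus strand), a secreted neurotrophic factor, averaged 1496 ± 340 CPM (SD, n = 15 mice) against 6.96 CPM in other nuclei, a 215-fold ratio. In NP mice its lowest, median and highest levels were 1009, 1359 and 1955 CPM. The 4 control RE mice had 1841, 1607, 1013 and 1137 CPM, and the 5 stress RE mice 1382, 1921, 1803, 1852 and 1410 CPM. The groups overlapped throughout, and every mouse lay far above the highest level in other nuclei. Ndnf is also used by neurogliaform interneurons, and the 3164 nuclei with Reln and GABAergic genes had 70.2 CPM.

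**Figure D1:**
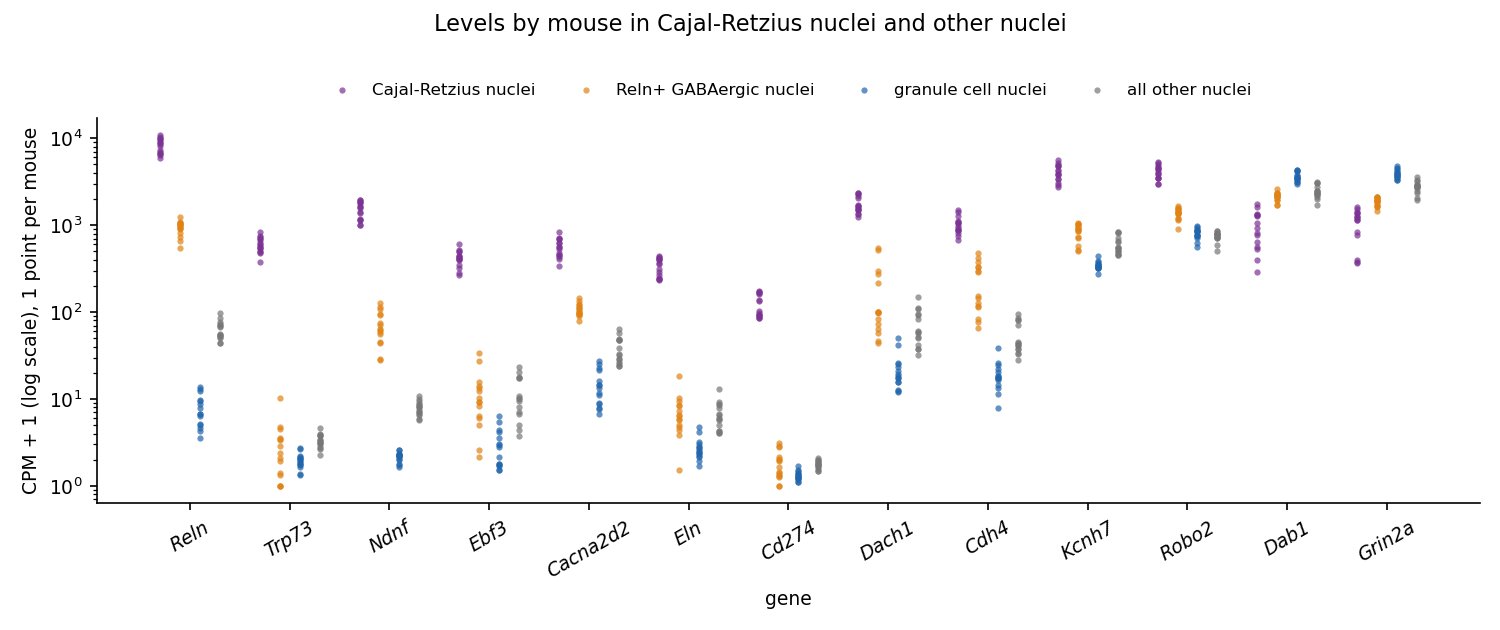
Levels of 13 genes, as CPM + 1 on a log axis, with 1 point per mouse (n = 15) for Cajal-Retzius nuclei, nuclei with Reln and GABAergic genes, granule cell nuclei and all other nuclei. Ndnf averaged 1496 CPM in Cajal-Retzius nuclei and 6.96 CPM in other nuclei, and Dab1 and Grin2a lay lower in Cajal-Retzius nuclei than in other nuclei of every mouse; Reln and Trp73 chose the nuclei.

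Detection followed the same order. Ndnf was detected in 90.4% of Cajal-Retzius nuclei (95% Wilson interval 88.2 to 92.2), and in 85.3% of the 666 that could be thinned to 2000 UMIs. In oligodendrocyte nuclei, which should lack the gene, the share was 1.48%, or 0.736% after thinning. Median depths were 3128 UMIs in Cajal-Retzius and 3500 UMIs in oligodendrocyte nuclei. The transcription factor Ebf3 (chr7:137193673-137314445, minus strand) was detected in 71.0% against 1.10%, and its level was 418 ± 89.6 CPM against 10.5 CPM. Cacna2d2, a calcium channel subunit, reached 82.1% against 4.2% and 558 ± 137 CPM against 37.3 CPM. Nhlh2, a helix-loop-helix factor of young and neuroendocrine neurons, was found in 27.6% against 0.304%. Cacna2d2 was also frequent in other nuclei with Reln. It was detected in 60.7% of those with GABAergic genes and 70.1% of those without a UMI of the 3 factors. Its level in these 2 sets was lower, at 107 and 162 CPM, and both were deeper, with medians of 12608 and 10575 UMIs. These intervals and shares cover counting error only.

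Slc17a6, the vesicular glutamate transporter VGLUT2, was detected in 34.0% of Cajal-Retzius nuclei, against 6.56% of oligodendrocyte and 15.0% of granule cell nuclei. It was not particular to them. The 1614 deeper nuclei with Reln but no UMI of the 3 factors held it in 60.8%. Its pooled level there was 153 CPM, against 122 CPM over all 823 Cajal-Retzius nuclei. Slc17a6 averaged 119 ± 32.3 CPM, 2.85-fold the level in other nuclei and higher in 15 of 15 mice. Slc17a7 (VGLUT1), by contrast, stood at 66.5 ± 32.0 CPM against 135 CPM and was lower in 15 of 15. Its share of 16.3% lay below the 33.3% in oligodendrocyte nuclei and was read as background. The calretinin gene Calb2, a classical protein marker of these cells, was low in this nuclear RNA, at 19.8 ± 17.5 CPM and 6.44% of nuclei. Cxcr4, the chemokine receptor that holds these cells under the meninges, had 18.1 ± 8.94 CPM against 0.250 CPM in other nuclei, and 7.53% of nuclei held a UMI.

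Among the genes of at least 50 CPM in every mouse, the 25 with the largest ratio over other nuclei were taken as leading genes. Ndnf came first, followed by Cd274 (the immune checkpoint ligand PD-L1) at 123 ± 36.2 CPM and 157-fold, Nhlh2 at 67.8-fold, the elastin gene Eln at 335 ± 78.0 CPM and 59.3-fold, and the lipid kinase Pik3c2g at 57.0-fold. The long noncoding gene Lhx1os, a neighbour of Lhx1 (53.1-fold), and Ebf3 (40.0-fold) were also among them. More abundant leading genes were the retinal determination factor Dach1 (1750 ± 384 CPM, 25.0-fold), the dystrophin relative Utrn (1434 ± 302 CPM, 21.6-fold), the cell adhesion gene Cdh4 (1013 ± 230 CPM, 19.4-fold) and Thsd7b (2330 ± 381 CPM, 12.9-fold). The lowest ratio among the 25 was 8.76, for Gm21798. Eln, Cd274 and Nhlh2 were at 0.321 to 1.75 CPM in granule cell nuclei, and at 0.603 to 6.10 CPM in nuclei with Reln and GABAergic genes.

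Of 25 genes listed for Cajal-Retzius identity, 20 reached 5 CPM on either side. At least 2-fold the mean of other nuclei and a higher level in 15 of 15 mice was found for 11 of these 20, against 2.91% of all 12604 genes measured. Besides those above, they were the cortical factor Tbr1 (55.3 ± 22.7 CPM, 7.04-fold), Lmx1a (41.9 ± 23.1 CPM, 13.9-fold), Emx2 (56.2 ± 26.5 CPM, 11.7-fold), Zic1 (73.8 ± 37.5 CPM, 2.71-fold) and Lhx2 (42.7 ± 10.7 CPM, 2.49-fold). The first 4 mark early sources of Cajal-Retzius cells, such as the cortical hem, or early cortical neurons. Dbx1, which marks another source, had 0 UMIs over all 823 nuclei, where 3 counts would stand for 0.772 CPM. The median ratio of the list was 5.26, against 1.06 over all genes measured.

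The nuclei were then clustered on their own to see how they vary. Sub-clusters 1 (455 nuclei) and 2 (234 nuclei) together held 689 nuclei, 83.7% of all, and had 2219 and 2566 CPM of Ndnf and 640 and 610 CPM of Ebf3. They carried the marker genes of the label and were Cajal-Retzius-like. Sub-cluster 3 (69 nuclei, median 10515 UMIs) was led by Otx2os1 and Scube1 and held 333 CPM of Tcf7l2, which marks thalamic neurons, against 25.1 CPM in sub-cluster 1. Sub-cluster 4 (38 nuclei, median 6363 UMIs) was led by Prr5l and the myelin genes Mobp, Mog and Mbp, and its 509 CPM of Tcf7l2 exceeded the level in sub-cluster 3. Sub-cluster 5 (27 nuclei, median 12188 UMIs) was led by granule cell genes such as C1ql3, Glis3 and Dsp. In sub-clusters 3 to 5 Reln stood at 1696, 3315 and 2997 CPM, against 12757 CPM in sub-cluster 1. A doublet score flagged 15, 16 and 10 of their nuclei, and 0 and 1 in sub-clusters 1 and 2. Leading genes of another cell type go against the label, so sub-clusters 3 to 5 were left unnamed.

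Sub-clusters 3 to 5 were 16.3% of the nuclei but gave 45.9% of the UMIs. Levels over all 823 nuclei therefore contain their RNA, and the counts of each gene list below are given also for sub-clusters 1 and 2 alone, where 3.75% of all genes were at least 2-fold higher and 10.4% at least 2-fold lower in 15 of 15 mice. The adhesion gene Cntnap2, for example, was at 10086 CPM over all and at 13522 CPM in sub-clusters 1 and 2, and the median ratio of the identity list was 5.26 and 7.24. The same 11 identity genes were higher in both.

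**Figure D2:**
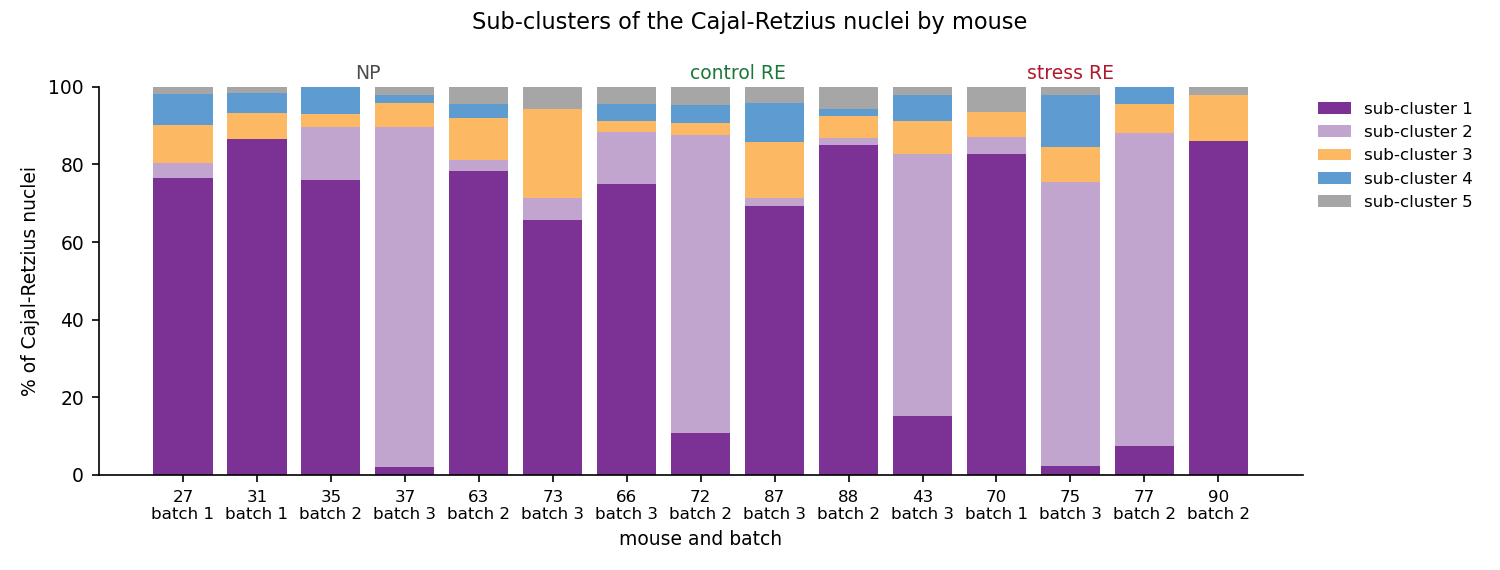
Percent of each mouse's Cajal-Retzius nuclei (vertical axis) in each of 5 sub-clusters, by mouse and batch, for all 15 mice of the 3 groups. Sub-cluster 2 took most nuclei in mice 37, 72, 43, 75 and 77 and few in the other 10, and each mouse held 1 to 12 nuclei of sub-cluster 3.

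Sub-clusters 1 and 2 were divided by library. Of the nuclei in these 2 sub-clusters, sub-cluster 2 took 97.7% in NP mouse 37, 87.7% in control RE mouse 72, and 81.6%, 97.1% and 91.5% in stress RE mice 43, 75 and 77. In the other 10 mice it took 0% to 15.4%. All 3 groups were on both sides, but not evenly, since the other 10 held 5 of 6 NP, 3 of 4 control RE and 2 of 5 stress RE mice. Sub-cluster 2 held 53 NP, 61 control RE and 120 stress RE nuclei, and sub-cluster 1 held 224, 137 and 94. The division is thus partly confounded with group in the comparisons of stress RE mice. None of the 3 mice of batch 1 was among the 5, and batches 2 and 3 were both divided. Identity genes outside the rule were present in both sub-clusters, with Cacna2d2 at 773 CPM in sub-cluster 1 and 942 CPM in sub-cluster 2, Nhlh2 at 123 and 139 CPM and Slc17a6 at 161 and 133 CPM. Of the genes of the rule, which every nucleus was chosen by, Reln was at 12757 and 13136 CPM, Trp73 at 927 and 912 CPM, Lhx5 at 84.8 and 83.0 CPM and Lhx1 at 129 and 184 CPM.

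Of 2023 genes of at least 100 CPM in sub-cluster 1 or 2, 19 were at least 2-fold higher and 39 at least 2-fold lower in sub-cluster 2. The clusters were built from these counts, so this is a description. Examples on the lower side, picked with their values known, were the sarcoglycan Sgcz (87.8 against 340 CPM), the protocadherin Pcdh7 (81.4 against 212 CPM) and the complement-domain gene Csmd1 (377 against 921 CPM). Over the mice, Csmd1 in sub-clusters 1 and 2 spanned 226 CPM (stress RE mouse 75) to 1265 CPM (control RE mouse 88). In granule cell nuclei of the same mice Csmd1 spanned 4797 to 6449 CPM. The Csmd1 levels of the 5 libraries were 274, 501, 469, 226 and 413 CPM, and those of the other 10 were at least 599 CPM.

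Examples on the higher side, also picked with their values known, were Gm10475 (543 against 229 CPM), the ciliary gene Hydin (123 against 49.5 CPM) and the long noncoding transcript 9630028H03Rik (436 against 183 CPM). These examples are no tally of how the other higher genes varied between libraries in other cells. In granule cell nuclei Gm10475 and Hydin had at most 0.389 and 1.18 CPM in any mouse. Gm10475 (chr5:21910931-21954014, plus strand) is annotated as antisense and lies within Reln, a gene of the rule, so its reads can be told apart from those of Reln only as far as the counting used strand, and its contrast with granule cell nuclei is not independent of the choice of nuclei. Their levels did not follow the sub-clusters in every mouse. NP mouse 35, mostly in sub-cluster 1, had 574 CPM of Gm10475 and 186 CPM of Hydin, among the highest values, whereas NP mouse 31 had 36.0 and 5.14 CPM. 9630028H03Rik varied in other cells too, from 16.7 to 177 CPM in granule cell nuclei. Sub-cluster 2 nuclei had a median of 2391 UMIs and sub-cluster 1 nuclei 3033. The part of depth in the division was not tested.

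**Figure D3:**
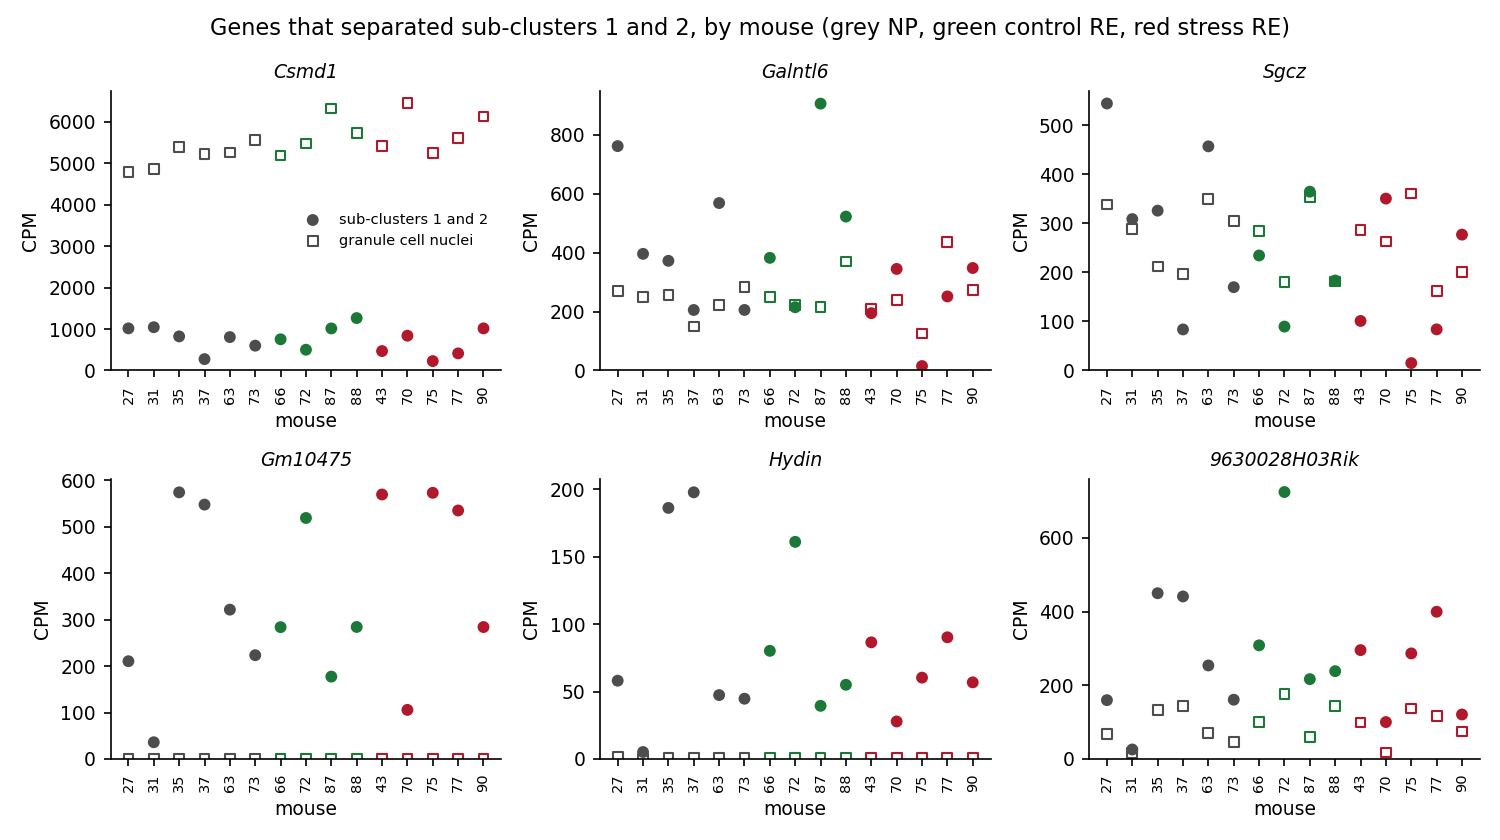
CPM of 6 genes that separated sub-clusters 1 and 2, by mouse, in sub-clusters 1 and 2 together (filled circles) and in granule cell nuclei (open squares). Csmd1 was lowest in mice 75, 37, 77, 43 and 72 in Cajal-Retzius nuclei and at 4797 CPM or more in granule cell nuclei, and Gm10475 and Hydin were near 0 in granule cell nuclei.

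Reelin is received by lipoprotein receptors and DAB1. Of 27 listed pathway genes other than Reln, 25 were measured. Dab1, the intracellular adaptor, averaged 972 ± 450 CPM in Cajal-Retzius nuclei against 2456 CPM in other nuclei and was lower in 15 of 15 mice. In sub-clusters 1 and 2 alone Dab1 was at 308 CPM, 0.125-fold the level of other nuclei, and granule cell nuclei had 3631 CPM. The receptor gene Vldlr was at 20.9 ± 10.2 against 48.3 CPM, and Lrp8 at 68.3 ± 20.1 against 59.4 CPM. The reelin-cleaving protease Adamts3 was at 29.1 ± 18.4 against 82.4 CPM. At least 2-fold higher in 15 of 15 mice were the kinase subunit Pik3r3 (152 ± 33.5 CPM, 2.14-fold), the ephrin Efnb2 (45.9 ± 17.9 CPM, 3.14-fold) and Nectin1 (57.3 ± 21.2 CPM, 2.14-fold), which mediates contact of Cajal-Retzius cells with migrating neurons. In all, 3 of 25 were higher and 4 were at least 2-fold below the mean and lower in 15 of 15 mice (background 2.91% and 3.68% of genes). The counts were 3 and 5 of 25 in sub-clusters 1 and 2 alone. The median ratio was 1.09 in both.

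Genes of the p53 family and of survival gave 2 higher and 0 lower of 16 measured, and 3 higher and 3 lower (Bcl2, Ntrk3 and Bdnf) of 17 in sub-clusters 1 and 2 alone. The shares over all genes were 2.91% and 3.68%, and 3.75% and 10.4% in sub-clusters 1 and 2, so 3 lower of 17 was near the background. Among the higher was Ntrk2, the BDNF receptor TrkB (1006 ± 96.0 CPM, 2.05-fold). Ntrk3, the neurotrophin-3 receptor, was at 438 ± 129 against 852 CPM, and Ngfr had 0 UMIs. Trp53 itself was at 15.9 ± 8.65 against 15.7 CPM, and Mdm2 at 80.4 ± 22.3 against 45.5 CPM.

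Of 16 transmitter and chloride genes, 1 was higher (Slc17a6) and 2 were lower over all members, against 2.91% and 3.68% of all genes. In sub-clusters 1 and 2 alone Slc17a6 was again the only higher gene and 5 were lower (Slc17a7, Slc1a1, Slc12a2, Slc12a5 and Cplx2), with a median ratio of 0.563 against 0.752 over all members. The chloride transporters Slc12a2 (NKCC1) and Slc12a5 (KCC2), which set whether GABA depolarizes a neuron, were at 65.7 ± 21.1 and 57.6 ± 19.5 CPM, against 117 and 107 CPM. Both were lower in 15 of 15 mice. Neuron-gated nuclei had 57.5 CPM of Slc12a2 and 120 CPM of Slc12a5.

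Receptor and channel genes were mostly low. Of 71 measured, 22 were at least 2-fold below the mean and lower in 15 of 15 mice, and 40 of 71 in sub-clusters 1 and 2 alone (background 3.68% and 10.4% of genes). The median ratio was 0.627 over all members and 0.337 in sub-clusters 1 and 2. The lower genes included the NMDA receptor subunits Grin2a (1069 ± 420 against 2760 CPM) and Grin2b (758 ± 252 against 1760 CPM), and the GABA-A receptor subunits Gabra4, Gabra5 and Gabrb1. Higher were 3 of 71, near the background of 2.91% of genes, and all 3 were potassium channel genes. Kcnh7, of the ERG family, averaged 4058 ± 863 CPM (6.75-fold), Kcnq5, of the M-current family, 2149 ± 345 CPM (2.67-fold), and Kcnc2, a Kv3 channel, 1345 ± 170 CPM (2.09-fold). The AMPA receptor subunit Gria4 was at 1041 ± 132 CPM, 1.91-fold, and joined these 3 in sub-clusters 1 and 2.

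Guidance and adhesion genes gave 9 higher and 8 lower of 63 over all members (background 2.91% and 3.68% of genes), with a median ratio of 0.621. The counts were 12 higher and 36 lower in sub-clusters 1 and 2 alone (background 3.75% and 10.4%), with a median ratio of 0.355. The lower genes there included the ephrin receptors Epha4, Epha5, Epha6, Epha7, Ephb1 and Ephb2, the teneurins Tenm1, Tenm2 and Tenm3 and the neuregulin receptor Erbb4. The slit receptor Robo2 was among the most abundant, at 4117 ± 754 CPM (5.55-fold), whereas Robo1 was at 1170 ± 340 against 1273 CPM. Cntnap2 averaged 10086 ± 1645 CPM (3.78-fold), Nrg1 3478 ± 425 CPM (3.53-fold), Epha3 842 ± 158 CPM (4.05-fold) and the plexin Plxnd1 96.4 ± 32.5 CPM (23.0-fold). The slits Slit1 and Slit3, the neuropilin Nrp1 and the neurexin Nrxn3 were lower in both. Cxcl12, the ligand of CXCR4, was at 40.1 ± 22.6 CPM, 6.23-fold and higher in 14 of 15 mice.

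Hormone, stress and dopamine genes gave 0 higher and 1 lower (Thrb) of 20 over all members (background 2.91% and 3.68% of genes). In sub-clusters 1 and 2 alone 0 were higher and 7 lower (Nr3c2, Fkbp5, Prlr, Crhr1, Thrb, Drd2 and Sgk1; background 10.4%), and the median ratio was 0.610 against 0.819. The glucocorticoid receptor Nr3c1 was at 141 ± 45.4 CPM against 143 CPM, and the mineralocorticoid receptor Nr3c2 at 502 ± 180 against 937 CPM. Oxtr, Avpr1a, Crh, Drd3, Drd4 and Th had 0 UMIs, and the dopamine receptor genes Drd1, Drd2 and Drd5 had 2, 8 and 2 UMIs in all. Among immediate early and H3K4 methylation genes 0 of 22 were higher or lower by these limits over all members and 2 were lower in sub-clusters 1 and 2 (Egr1 and Nr4a1), and Kmt2a had 426 ± 58.8 against 306 CPM.

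Markers of other cell types were detected among the Cajal-Retzius nuclei of many mice. Over the 15 mice the summed level of 6 oligodendrocyte genes in Cajal-Retzius nuclei was 164 to 1421 CPM, against 1073 to 2569 CPM in other nuclei, and none of the 6 was at 0. The sum of 4 microglia genes reached 309 CPM from a lowest value of 53.6 CPM, against 76.0 to 183 CPM in other nuclei. For 5 CA pyramidal genes it was 96.0 to 673 CPM, against 325 to 513 CPM, and for 3 precursor genes 37.3 to 111 CPM, against 56.7 to 89.8 CPM. The highest Cajal-Retzius values of these 3 lists lay above those of other nuclei, as did that of 3 endothelial genes (0 to 44.1 CPM against 6.18 to 33.3 CPM). The sums of 5 granule cell genes (330 to 829.2 CPM against 909 to 1404 CPM), 4 astrocyte genes (15.3 to 134 CPM against 105 to 211 CPM), 4 thalamic genes (48.5 to 560 CPM against 236 to 728 CPM) and 3 choroid plexus genes (0 to 364 CPM against 11.3 to 377 CPM) stayed below the highest value of other nuclei. So did 4 leptomeningeal genes (0 to 5.43 CPM against 3.12 to 18.8 CPM) and 6 GABAergic genes outside the rule (24.9 to 103 CPM against 62.98 to 130.3 CPM). Slc6a13, a leptomeningeal marker, was at 0. Cspg4 was the only gene of these lists at least 2-fold higher in 15 of 15 mice (30.8 ± 15.2 CPM, 3.36-fold), while the defining precursor marker Pdgfra was at 2.94 CPM.

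The share of Cajal-Retzius nuclei did not differ detectably between groups. NP mice averaged 0.731% ± 0.349 (SD, n = 6), control RE mice 0.555% ± 0.111 (n = 4) and stress RE mice 0.611% ± 0.191 (n = 5). In NP mice the lowest, median and highest shares were 0.321%, 0.715% and 1.29%. The control RE mice had 0.673%, 0.616%, 0.425% and 0.506%, and the stress RE mice 0.563%, 0.802%, 0.355%, 0.801% and 0.534%. The 3 groups overlapped, with the 2 extremes both in NP, mice 35 and 63. The 95% Wilson interval of mouse 63 (1.07 to 1.55) did not reach that of mouse 35 (0.223 to 0.460).

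By two-sided exact permutation, the mean share in control RE minus that in NP came to -0.176 percentage points (p = 0.381). The exact test gave p = 0.603 for stress RE minus control RE (0.0561) and p = 0.528 for stress RE minus NP (-0.120). All 3 had an adjusted p of 0.603, and the smallest p these permutations could give were 0.00476, 0.00794 and 0.00216. With neuron-gated nuclei alone as the denominator the direction of stress RE minus control RE turned (-0.0910, exact p = 0.683). Within batches 2 and 3, control RE minus NP gave -0.245 and 0.0179, and for stress RE minus control RE the values were 0.107 and -0.0898. Stress RE minus NP was -0.0534, -0.138 and -0.0719 in batches 1, 2 and 3. Over the 15 mice no relation was detected between this share and the share of granule, GABAergic Reln, leptomeningeal, oligodendrocyte or thalamic nuclei (5 relations, lowest permutation p = 0.0860 for Pearson's r, adjusted 0.430). That lowest p belonged to the thalamic share (r = 0.462, Spearman's rho = 0.261), and r was 0.0441 without mice 63 and 43. Within batches 2 and 3, of 6 mice each, r was 0.773 and 0.503 for the thalamic, -0.446 and 0.623 for the granule, 0.264 and -0.709 for the GABAergic Reln, 0.235 and -0.0832 for the leptomeningeal and 0.0771 and -0.406 for the oligodendrocyte share, given as a description with no test. Without the 5 libraries that stood apart (leaving 5 NP, 3 control RE and 2 stress RE mice), the share differences were -0.220 for control RE minus NP (exact permutation p = 0.411), 0.133 for stress RE minus control RE (exact p = 0.400, where 0.100 was the smallest possible) and -0.0866 for stress RE minus NP (exact p = 0.857).

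**Figure D4:**
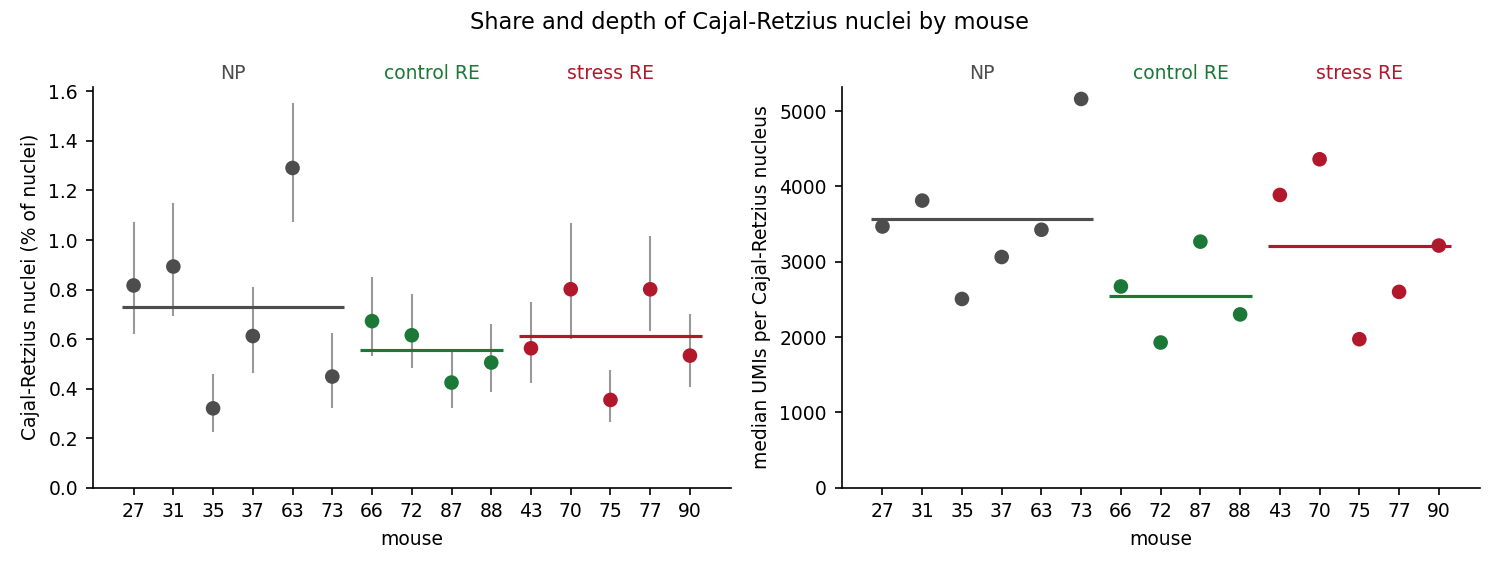
Left, percent of nuclei that were Cajal-Retzius nuclei in each mouse, with 95% Wilson intervals; right, median UMIs per Cajal-Retzius nucleus; horizontal lines are group means. NP mice covered 0.321% to 1.29% and enclosed both RE groups in share, and the control RE mean of 2543 UMIs lay below the NP mean of 3574.

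Cajal-Retzius nuclei were shallower than the median nucleus of the same library in every mouse, with a ratio of median UMIs of 0.376 to 0.949. Their median UMIs averaged 3574 ± 896 (NP), 2543 ± 571 (control RE) and 3208 ± 960 (stress RE). Control RE minus NP was -1030.5 UMIs (exact permutation test, two-sided, p = 0.0667, adjusted 0.200 over 6 tests of UMIs and genes), and it was -851 and -1142.5 UMIs within batches 2 and 3. For median genes per nucleus, the same difference was -363 (exact permutation test, p = 0.0619, adjusted 0.200). Without NP mouse 35 these were -1244 UMIs and -432 genes (exact permutation p = 0.0317 for each), and without control RE mouse 87 the difference in genes was -468 (exact permutation p = 0.0476). Over all tests that left out 1 mouse the exact permutation p ran from 0.0317 to 0.190 for UMIs and from 0.0317 to 0.167 for genes, with differences as small as -712.8 UMIs and -272 genes. Without the 5 libraries that stood apart, control RE minus NP was -927.7 UMIs and -302 genes (exact permutation p = 0.179 for each). Stress RE minus control RE was 664.8 UMIs and 233 genes over all mice and 1041 UMIs and 324 genes without them, and stress RE minus NP was -365.7 UMIs and -131 genes over all mice and 113 UMIs and 22.3 genes without them.

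Expression was then compared between groups with summed counts per mouse. Of 5177 genes tested by edgeR's quasi-likelihood test with Benjamini-Hochberg adjustment, 0 passed an adjusted p of 0.05 in control RE minus NP, 0 in stress RE minus control RE and 0 in stress RE minus NP (0.0% in each). At an unadjusted p under 0.05 there were 186 (3.59%), 187 (3.61%) and 184 genes (3.55%). DESeq2 called 0, 1 (0.0193%) and 0 genes, with 127 (2.45%), 112 (2.16%) and 118 (2.28%) at an unadjusted p under 0.05. The median absolute log2 fold change was 0.18, 0.18 and 0.16, with a median standard error of 0.28, 0.30 and 0.26. In simulated data of the same size, for stress RE minus control RE, the test found 43% of genes with a log2 change of 1 and 92% of those with 2. There 100 genes of each step were changed at once, which eases the Benjamini-Hochberg adjustment. With fewer changed genes these shares can be lower.

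The counts differed under other settings. Without a filter on low counts 26, 17 and 23 genes passed, out of a larger set of genes than the 5177. Among them were leading genes of the unnamed sub-cluster 3. Nwd2 had the smallest adjusted p in control RE minus NP and in stress RE minus control RE (edgeR, 3.05e-28 and 2.46e-14). Scube1, D130079A08Rik and Rgs6 passed in both, and Il1rapl2 and Prdm16 in stress RE minus NP. Without the 39 nuclei over 15000 UMIs 0, 3 and 0 passed, and without the 5 libraries of sub-cluster 2 or in sub-clusters 1 and 2 alone 0 passed in each comparison. Leaving out NP mouse 27 gave 1 gene in control RE minus NP, Ebf1 (log2 fold change -1.34 ± 0.22, edgeR adjusted p = 0.0448). Ebf1 is on the identity list but was not among its 11 genes that were higher in Cajal-Retzius nuclei. Mouse 27 had 11.9 CPM of Ebf1 and the other 5 NP mice 133 to 290 CPM.

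With fewer than 5 calls, the 5 genes with the smallest p in each comparison are described, and none of these differences passed the edgeR adjustment over the 5177 genes. Without a filter on low counts 6 of them passed, namely Rfx3 (edgeR adjusted p = 0.0138) and Il1rap (0.0443) in control RE minus NP, Zbtb16 (0.00161) and Alk (0.000251) in stress RE minus control RE, and Olfm3 (0.000139) and Sgk1 (0.000259) in stress RE minus NP. These 6 rest on the unfiltered p described above, which took little account of each gene's spread between mice. The gene with the smallest p in stress RE minus control RE was Zbtb16 (chr9:48654297-48836222, minus strand), a zinc finger transcription factor that glucocorticoids induce in many cell types. In NP mice its lowest, median and highest levels were 123, 230 and 290 CPM. The control RE mice had 365, 313, 331 and 432 CPM, and the stress RE mice 128, 191, 133, 135 and 202 CPM. The lowest stress RE values, 128, 133 and 135 CPM, were those of mice 43, 75 and 77, which are among the 5 libraries that stood apart. Stress RE mice 70 and 90 had 191 and 202 CPM. Control RE mouse 72, also among the 5, had the lowest control RE value of 313 CPM. Every control RE mouse was above every mouse of the other 2 groups. Zbtb16 was picked by its p in these same mice, so this is a description. Stress RE minus control RE was -1.18 ± 0.24 (log2, SE; edgeR adjusted p = 0.440), and -1.19 by DESeq2, where Zbtb16 was the 1 gene called (adjusted p = 0.0426).

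Zbtb16 differed by as much in sub-clusters 1 and 2 alone (-1.18, edgeR adjusted p = 0.146), where the control RE mice had 268 to 413 CPM and the stress RE mice 96.7 to 180 CPM. That comparison still includes the 5 libraries that stood apart. Without the 5 libraries the difference was -0.91, and with batch as a term -1.22 (edgeR adjusted p = 0.527). Control RE minus NP was 0.77 ± 0.22 (edgeR adjusted p = 1.00), a comparison that shares the 4 control RE mice. In sub-clusters 1 and 2 alone it was 0.51 and the groups overlapped, since the lowest control RE mouse had 268 CPM and the highest NP mouse 298 CPM. In granule cell nuclei of the same mice, Zbtb16 averaged 363 ± 62.8 CPM (NP), 396 ± 62.5 CPM (control RE) and 338 ± 78.3 CPM (stress RE). In nuclei with Reln and GABAergic genes it averaged 199 ± 68.1, 251 ± 34.7 and 172 ± 59.3 CPM. Whether the difference between groups itself differs between these cell types was not tested.

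The remaining 4 of that comparison were Alk, Vwa8, Foxo1 and Mrtfb. The receptor tyrosine kinase gene Alk had 143 ± 44.8 CPM in the stress RE mice against 44.1 ± 12.4 CPM in the controls (1.69 ± 0.41, edgeR adjusted p = 1.00). Alk came mostly from sub-clusters 3 to 5, with 181 CPM there and 35.2 CPM in sub-clusters 1 and 2, where it was too low to be tested. In sub-clusters 1 and 2 the stress RE mice had 36.3 ± 31.5 CPM and the control RE mice 29.4 ± 18.0 CPM. The larger difference over all members was thus not seen there. Its difference was 0.66 without the nuclei over 15000 UMIs and 0.75 with the same number of nuclei drawn per mouse. Mrtfb, a coactivator of serum response factor, had 229 ± 10.4 and 134 ± 28.8 CPM (-0.76 ± 0.21). It passed without the nuclei over 15000 UMIs (edgeR adjusted p = 0.0417), as did Zbtb16 and Tmem108, whereas without the 5 libraries of sub-cluster 2 the difference was -0.48. Mrtfb levels of control RE and NP mice overlapped in sub-clusters 1 and 2 alone, with 142 CPM in the lowest control RE and 171 CPM in the highest NP mouse. The other 14 of the 15 differences described for single genes moved by at most 1.5 times without them. Foxo1, a forkhead factor of insulin signalling, had 96.5 ± 16.8 and 49.6 ± 11.0 CPM (-0.97 ± 0.26), and Vwa8 208 ± 45.7 and 124 ± 24.2 CPM (-0.72 ± 0.19). For Vwa8, Foxo1 and Mrtfb the edgeR adjusted p was 1.00.

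In control RE minus NP the smallest p belonged to Rfx3 (chr19:27761721-28011166, minus strand), a regulator of ciliary genes. NP mice had a lowest, median and highest level of 233, 369 and 431 CPM, the control RE mice 705, 520, 599 and 809 CPM, and the stress RE mice 364, 383, 406, 292 and 547 CPM. The control RE and NP mice did not overlap (0.93 ± 0.20, edgeR adjusted p = 0.896). In sub-clusters 1 and 2 alone the difference was 0.41 and the groups overlapped, with 331 to 550 CPM against 216 to 402 CPM. Il1rap, the accessory chain of the interleukin-1 receptor, had 279 ± 45.3 CPM in control RE and 140 ± 48.0 CPM in NP (0.94 ± 0.25), and its difference was 0.40 in sub-clusters 1 and 2, where the lowest control RE mouse had 71.6 CPM and the highest NP mouse 122 CPM. The RNA-binding genes Auh (54.8 ± 12.4 against 96.3 ± 9.23 CPM, -0.81 ± 0.20) and Syncrip (108 ± 13.0 against 68.1 ± 13.1 CPM, 0.71 ± 0.20) kept differences of -0.80 and 0.74 there. Their groups overlapped there too. Auh had 44.7 to 78.8 CPM in control RE and 50.8 to 125 CPM in NP mice, and Syncrip 86.4 to 148 and 53.2 to 94.3 CPM. The edgeR adjusted p of Il1rap, Auh and Syncrip was 1.00. The groups of mice did not overlap in 48 of 5177 genes in control RE minus NP (0.927%), in 66 in stress RE minus control RE (1.27%) and in 17 in stress RE minus NP (0.328%). The genes named were picked by their p from the same counts, so their lack of overlap is no separate evidence.

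In stress RE minus NP the groups overlapped for each of the 5 genes, and each had an edgeR adjusted p of 1.00. Sgk1, a kinase induced by corticosteroids, had 38.8 ± 11.1 CPM in stress RE against 107 ± 47.7 CPM in NP (-1.48 ± 0.33), and Olfm3, a secreted synaptic protein, 65.8 ± 27.7 against 161 ± 84.2 CPM (-1.31 ± 0.34). Both came mostly from sub-clusters 3 to 5, with 133 against 40.0 CPM for Sgk1 and 230 against 41.9 CPM for Olfm3 in sub-clusters 1 and 2. In sub-clusters 1 and 2 Sgk1 was at 25.0 ± 8.98 CPM in stress RE and 46.8 ± 25.5 CPM in NP mice. Olfm3 was at 25.6 ± 14.8 and 53.4 ± 26.3 CPM there. The difference of Sgk1 was -0.72 without the nuclei over 15000 UMIs, and that of Olfm3 was -2.19 among nuclei with at least 2 UMIs of the 3 factors. Nrgn, the calmodulin-binding neurogranin, was at 130 ± 30.6 against 74.4 ± 10.1 CPM (0.80 ± 0.22, and 0.52 without the nuclei over 15000 UMIs), Zfp654 at 102 ± 20.0 against 63.4 ± 9.24 CPM (0.66 ± 0.18), and the actin regulator Wasf2 at 104 ± 29.6 against 62.4 ± 4.46 CPM (0.71 ± 0.21).

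**Figure D5:**
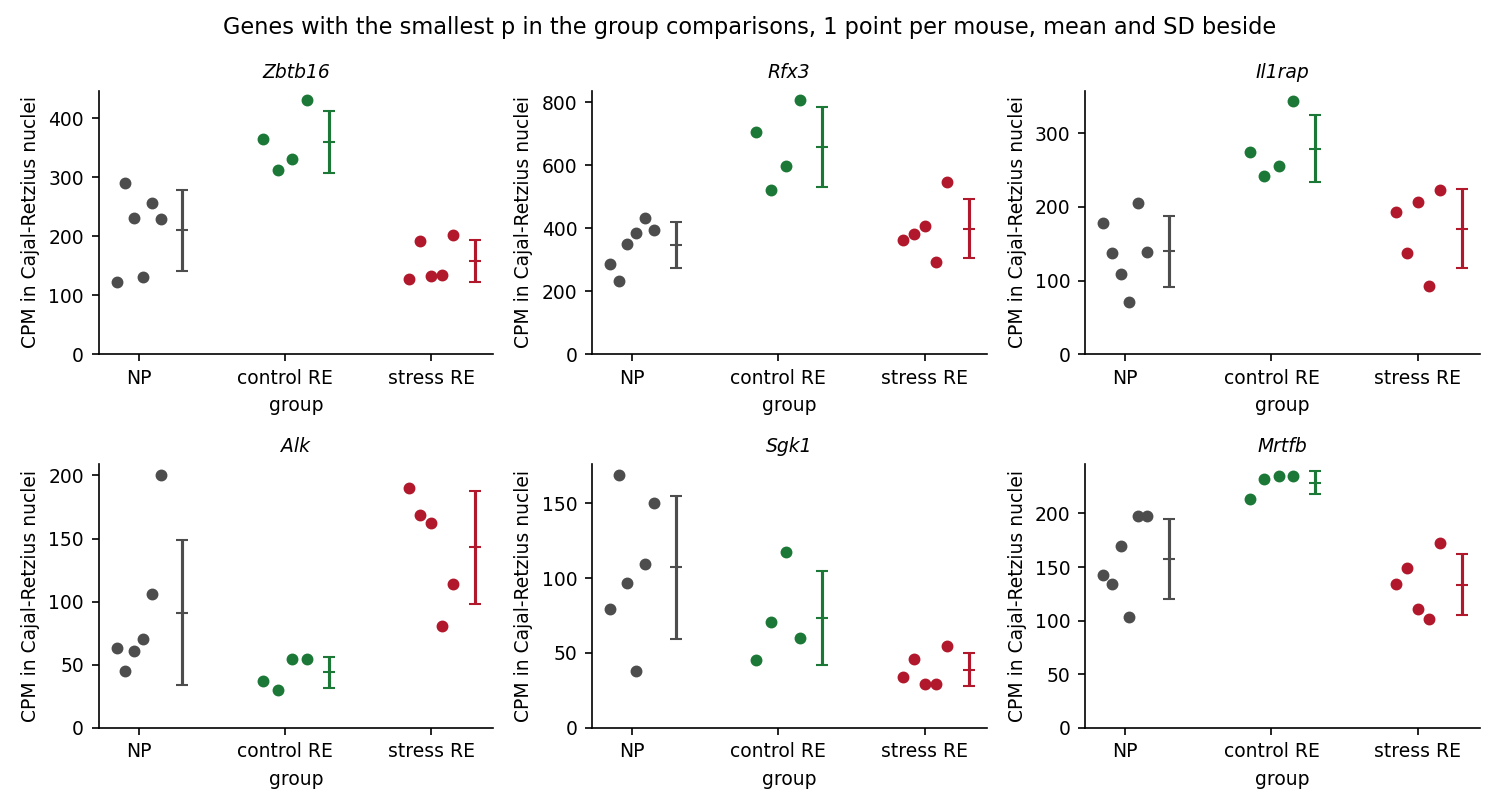
CPM in Cajal-Retzius nuclei of 6 genes among those with the smallest p, with 1 point per mouse and the mean ± SD beside each group (NP n = 6, control RE n = 4, stress RE n = 5). Over all members Zbtb16, Rfx3, Il1rap and Mrtfb were higher in every control RE mouse than in any NP mouse (0.927% of all genes did not overlap). The genes were picked by their p, so this is a description. In sub-clusters 1 and 2 alone all 4 overlapped. With all members and the filter on low counts none of the differences passed the edgeR adjustment. Without the nuclei over 15000 UMIs Zbtb16 and Mrtfb passed in stress RE minus control RE (edgeR adjusted p = 0.0417 for each).

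By edgeR with all mice the listed gene groups held 0 calls in any comparison. Under other settings described above, Zbtb16, of the hormone, stress and dopamine list, was called in stress RE minus control RE by DESeq2 and without the nuclei over 15000 UMIs, and Ebf1, of the identity list, in control RE minus NP without NP mouse 27. Without a filter on low counts Erbb4 and Ebf1 in control RE minus NP, Zbtb16 in stress RE minus control RE, and Sgk1, Htr2c and Spag16 in stress RE minus NP were called. Those calls rest on p that took little account of each gene's spread between mice. Spag16 had been put on the list of CA pyramidal genes, and the cells its counts came from were not examined. Of the identity list, 11 genes were tested, with median log2 fold changes of -0.04, 0.02 and -0.02 in control RE minus NP, stress RE minus control RE and stress RE minus NP. The median over all genes was 0.00, 0.01 and 0.00. The reelin pathway gave -0.02, 0.04 and -0.09 over 19 genes, p53 family and survival -0.01, -0.07 and -0.11 over 7, transmitter and chloride -0.02, 0.02 and -0.06 over 13, and receptors and channels 0.03, -0.08 and -0.03 over 58. Hormone, stress and dopamine genes gave -0.14, -0.01 and -0.02 over 11, immediate early and H3K4 genes -0.11, 0.15 and -0.02 over 10, and guidance genes -0.05, 0.03 and -0.09 over 56.

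At an unadjusted p under 0.05 by edgeR, control RE minus NP held 2 of 11 identity genes (Slc17a6 and Ebf1), 2 of 19 reelin pathway genes (Lrp8 and Nectin1) and 4 of 56 guidance genes (Erbb4, Epha7, Sema3e and Cntn5), where the share over all genes was 3.59%. It also held 1 hormone, stress and dopamine gene (Zbtb16), 1 H3K4 gene (Setd1b) and, as the transmitter gene, Slc17a6. In stress RE minus control RE (3.61% of all genes) these were 3 identity genes (Tbr1, Slc17a6 and Ebf1), 2 hormone, stress and dopamine genes (Zbtb16 and Sgk1) and 1 gene each of the reelin pathway (Lrp8), receptors and channels (Cacna1g), H3K4 (Setd1b) and guidance (Epha7), with Slc17a6 again the transmitter gene. In stress RE minus NP (3.55% of all genes) they were 0 identity genes, Efnb2 of the reelin pathway, Cacna1g and Cacna1d of the channels, Sgk1 and Ghr of the hormone, stress and dopamine list, and Ephb1 and Robo2 of guidance. The p53 family and survival list held 0 in each.

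Markers of other cell types differed between the same mice. The summed granule cell genes were at 395 to 627 CPM (NP), 530 to 829.2 CPM (control RE) and 330 to 672 CPM (stress RE), and 2 of the 3 tested, Dock10 and Glis3, had an unadjusted p under 0.05 in stress RE minus control RE. So had Slc1a3 (log2 fold change -1.29), the only astrocyte marker tested. The summed oligodendrocyte genes were at 230 to 1421, 251 to 1202 and 164 to 1396 CPM, and the thalamic genes at 48.5 to 405, 279 to 445 and 88.8 to 560 CPM. Their part in the differences of single genes was not tested.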

How the data were processed

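Nuclear RNA of 15 libraries was counted by the authors with Cell Ranger on the mouse mm10-2020-A reference. The submitters' notes name version 7.1.0 and the file headers 7.0.0. The deposited filtered matrices hold raw UMI counts per gene and barcode. Per the study's methods SoupX, DoubletFinder and Seurat were applied afterwards, so free RNA and doublets are still in these counts. Here Scrublet scores were computed per library, and flagged nuclei were kept, with their removal as an alternative.

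The members, gene lists and tests were chosen with earlier results of these data known. Groups and batches came from the labels, and replicate numbers follow accession order. Counts of the members were summed per mouse and tested with edgeR 4.0.16 (quasi-likelihood, TMM, filterByExpr, 3 groups in 1 fit, Benjamini-Hochberg threshold 0.05), with DESeq2 1.42.0 as an alternative, in R 4.3.3. Fold changes are log2 with standard errors. Shares, median UMIs and median genes were compared over mice by exact permutation tests (two-sided), and correlations with 100000 permutations (scipy 1.17.1). The members were sub-clustered with scanpy 1.11.5 (1000 variable genes, 20 principal components, 15 neighbours, Leiden resolution 0.5). The test was checked on simulated counts.

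Genes were named when they belonged to a gene list, were among the 25 largest ratios of members over other nuclei at 50 CPM or more in every mouse, or were called, or, with under 5 calls, had 1 of the 5 smallest p in a comparison. Positions are from GENCODE vM21 on GRCm38. Values of some listed genes are not reported here.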

Additional observations from a re-analysis of the deposited data

Results flagged for a closer look

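In groups of 4 to 10 mice, 72 sets of values were examined for a mouse whose distance from its nearest neighbour was large against the range of its group (Dixon's 95% limit), and 5 were found. Chance alone flags about 1 in 20 such groups. NP mouse 37 had 97.7% of its sub-cluster 1 and 2 nuclei in sub-cluster 2, and the nearest NP mouse had 15.4%. Control RE mouse 72 had 87.7%, and the nearest control RE mouse 15.0%. Stress RE mice 43, 75 and 77 had similarly high values but were not single in their group. Mrtfb was at 213.2 CPM in control RE mouse 66 and at 232.4 CPM or more in the other 3. Stress RE mouse 75 had 133.0 CPM of Nhlh2, against a nearest value of 76.1 CPM, and 81.3 CPM of Vwa8, against 126.3 CPM.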

How the results depend on the processing

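No paired analysis was possible because the replicate numbers follow accession order and the labels carry none that tie mice across groups. Of 72 share differences under alternatives, 0 had a p under 0.05. With neuron-gated and Cajal-Retzius nuclei together as the denominator, stress RE minus control RE in share was -0.0893, the opposite direction. With neuron-gated nuclei alone as the denominator it was -0.0910, and the correlation with the GABAergic Reln share was -0.0717 rather than 0.0133. Without the 5 libraries mostly in sub-cluster 2, an alternative chosen after seeing the data, stress RE minus NP turned to 113 UMIs and 22.3 genes from -365.7 and -131. The cause was not tested for either. Leaving out 1 mouse at a time, the share difference ranged from -0.258 to -0.0638 for control RE minus NP, from 0.00846 to 0.120 for stress RE minus control RE and from -0.202 to -0.00763 for stress RE minus NP. Median UMIs in control RE minus NP ranged from -1272 to -712.8 and median genes from -467.5 to -272.2. Genes called ranged from 0 to 1 in control RE minus NP (Ebf1 without mouse 27) and from 0 to 0 in the other comparisons. DESeq2 called 1 gene in stress RE minus control RE. Without a filter on low counts 26, 17 and 23 genes were called, among them leading genes of the unnamed sub-cluster 3. The p of that setting took little account of each gene's spread between mice. Without nuclei over 15000 UMIs, an alternative chosen after seeing the data, 3 were called in stress RE minus control RE. Of 372 fold changes of the named genes under alternatives, 0 changed direction and 9 passed the threshold that the main values did not. Several moved by over 1.5 times. Without nuclei over 15000 UMIs Alk fell from 1.69 to 0.66, Sgk1 moved from -1.48 to -0.72 and Nrgn from 0.80 to 0.52, and with the same number of nuclei per mouse Alk was 0.75 and Zbtb16 in control RE minus NP 0.44 rather than 0.77. In sub-clusters 1 and 2 alone Rfx3 was 0.41, Il1rap 0.40 and Zbtb16 in control RE minus NP 0.51. Olfm3 was -2.19 rather than -1.31 with at least 2 UMIs of the 3 factors, and Mrtfb -0.48 rather than -0.76 without the 5 libraries. The adjusted p of Zbtb16 in stress RE minus control RE ranged from 0.00161, without a filter on low counts, to 1.00. The median log2 ratio of 10 markers outside the rule was 3.36, and 3.90 in sub-clusters 1 and 2 alone, also chosen after seeing the data. Ndnf was detected in 90.4% of nuclei and in 85.3% after thinning. With 72382 to 587520 UMIs per mouse in the fit and a median standard error near 0.28, 43% of simulated 2-fold changes were found, so changes of that size can be missed. In the simulation 100 genes of each step were changed at once, and with fewer changed genes the share found can be lower.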
